A study of Xenopus laevis with 3 samples.

Results

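Ion pumps, ion channels and aquaporins were described in the inner ear of *Xenopus laevis* larvae on the *s50* arrays. Their 3 samples are called s50_1, s50_2 and s50_3. Members were chosen by symbol alone, as every probe set (Xl-PSID) whose single gene symbol carries a family name such as *atp6v*, *kcn*, *scn*, *clcn*, *aqp* or *cacn*. This gave 162 Xl-PSIDs of 15505 with a single symbol, and 102 genes of 9271 after the L and S homeologs of this allotetraploid frog were joined. The older names *kcnb2-a* and *aqp3-a* were counted as genes apart from *kcnb2* and *aqp3*. The larvae came from a supplier, were of stages 50 to 52 and 15 to 21 days after fertilization, and inner ears from 15, 38 and 24 animals were pooled for the 3 arrays. No strain, genotype or treatment is given for them. Labelling started from 1 µg of total RNA for s50_1 and s50_2 and from 0.7 µg for s50_3. There is 1 condition, so levels and their spread over 3 pools are given and no test was made. Each value is a log2 intensity after GCRMA, values after ± are SDs over the 3 arrays, and the number of arrays limits the precision. An Xl-PSID counts as detected where its mean is at least 4. Intensity depends on the probes as well as on the transcript, so values of different genes do not rank their abundance.

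Hair cells of the inner ear open onto endolymph, a fluid rich in potassium and poor in sodium. In mammals the sodium pump loads secretory cells with potassium, which leaves through the KCNQ1 channel with its partner KCNE1, while the KCNJ10 channel contributes to the voltage of the fluid. Proton pumps, chloride channels, epithelial sodium channels and water channels adjust acidity, chloride, sodium and volume, and plasma membrane calcium pumps supply the calcium of the fluid around the hair bundle.

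Beta subunits of the sodium pump, both sectors of the vacuolar proton pump, *kcnq1*, *kcnj10*, the beta and gamma subunits of the epithelial sodium channel and *aqp3* were all detected in the *s50* inner ear. Not detected were *cftr*, *atp6v0a4*, *kcnj16*, *aqp2*, *trpm4* and the gastric proton pump. The KCNQ1 partner *kcne1* had a mean of 4.15, close to the threshold, and was below 4 on s50_2. Of 4 measured channels from a list of neuronal channels, *kcna1* was detected and *kcna2*, *scn1a* and *cacna1a* were not. Outside that list, *kcna4* and *kcnd3* of excitable cells were detected. In all, 112 of 162 member Xl-PSIDs were detected (69.1%), beside 73.3% of all Xl-PSIDs with a single symbol. Here and below, all Xl-PSIDs, all detected Xl-PSIDs and all genes are those with a single symbol. By genes the number was 75 of 102 (73.5%), beside 80.5% of all genes. That share is also the reference for the count of detected genes in each family below. The median over member Xl-PSIDs was 7.94, beside 8.78 over all, and over those detected it was 10.23 beside 10.03. Member means ran from 1.81 to 14.66. Single values of 42 *Bacillus subtilis* control probe sets, which match no frog gene, ran from 1.83 to 2.17, and 34 of the 50 members not detected had means no higher than that. Of these 50, 46 were below 4 on every array. Symbols ended in L for 95 Xl-PSIDs and in S for 63, and 4 had neither.

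**Figure D1:**
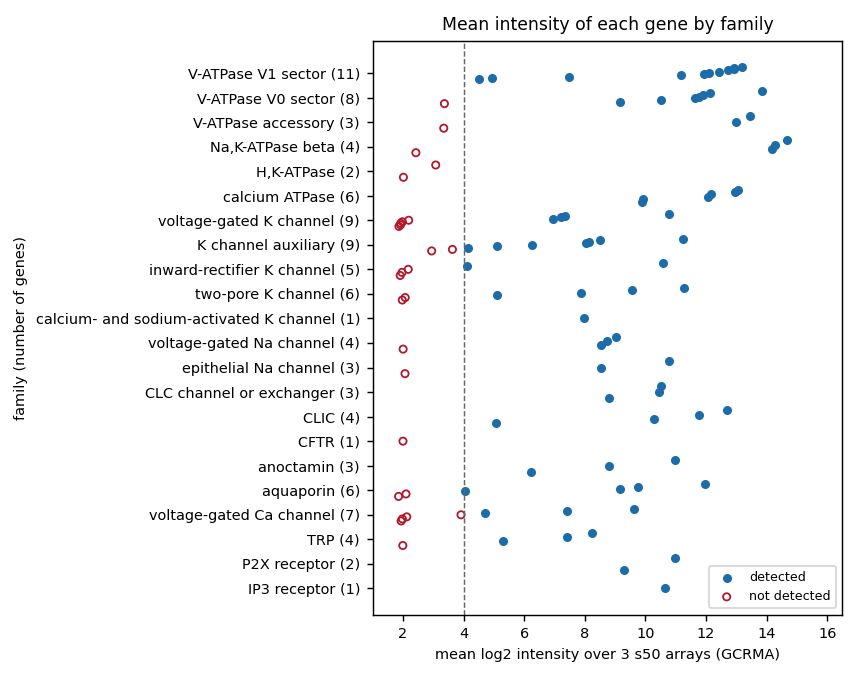
Mean log2 intensity over the 3 s50 arrays (x axis) of each of the 102 genes, by family (y axis, number of genes in brackets), with the highest Xl-PSID standing for a gene. Filled points were detected and open points were not, with the dashed line at 4; all 3 CLC and all 6 calcium ATPase genes lie right of the line, and the H,K-ATPase and CFTR genes lie left of it.

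The tissue label was checked with marker genes. Of 14 hair cell symbols only *myo6*, for a myosin of the hair bundle, was matched here, with 12.65 ± 0.44. Of 8 symbols for supporting cells and otoconia only *tecta.2*, for a protein of the tectorial membrane, was matched, with 8.38 ± 0.66. A single marker of each is a weak check of the label. The study's authors name oncomodulin Xl-PSIDs on these arrays, so a symbol not matched here need not be missing from them. Markers of other tissues were on the arrays too. All 10 measured muscle markers and 10 of 11 markers of neurons and Schwann cells were detected. So were 5 of 6 erythroid and 5 of 10 epidermal markers, beside 80.5% of all genes. Epidermal markers were thus detected less often than all genes. A channel of these tissues and a channel of the sensory epithelium therefore cannot be told apart by level, nor can fewer cells of a type and less RNA per cell.

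The vacuolar proton pump (V-ATPase) acidifies organelles in every cell and, in specialized cells, drives protons across the plasma membrane. Its V1 sector hydrolyses ATP and its V0 sector passes the protons. All 11 measured V1 genes, 7 of 8 V0 genes and 2 of 3 accessory genes were detected, with a median over these 22 genes of 11.91. The catalytic subunit *atp6v1a* had 11.99 on s50_1, 11.96 on s50_2 and 12.38 on s50_3. Its ATP-binding neighbour *atp6v1b2* had 13.23, 13.16 and 13.19 in the same order. On these Xl-PSIDs, the highest of each gene, the core subunits varied little, and so did *atp6v1c1*, which links the sectors, with 12.69, 12.75 and 12.72. Further Xl-PSIDs of *atp6v1b2* varied more and were lowest on s50_3, with 11.99, 11.82 and 11.19 on one and 11.78, 11.30 and 10.47 on the other. The shaft subunits *atp6v1d* and *atp6v1f* had means of 12.93 ± 0.14 and 12.92 ± 0.12, and the stalk subunit *atp6v1e1* had 11.94 ± 0.26. Further Xl-PSIDs of *atp6v1f* had 11.92, 11.38 and 10.42 on one and 10.57, 10.62 and 9.95 on the other.

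In the V0 sector the proteolipid *atp6v0c*, which forms the rotating ring, had 14.06, 13.85 and 13.66. The ring subunit *atp6v0b* had 12.17, 11.78 and 11.33. The small subunit *atp6v0e2* had 12.25, 12.20 and 11.91, and *atp6v0e1* had 11.94, 11.68 and 11.27. On each of these the lowest value was on s50_3. The widely expressed isoform *atp6v0a1*, which forms the proton path with the ring, had 10.52 ± 0.30, and *atp6v0d1*, which couples the ring to the shaft, had 11.89 ± 0.54 on its highest Xl-PSID and 9.63, 6.35 and 4.79 on the other. The accessory genes *atp6ap1.2* and *atp6ap2* had 13.45 ± 0.16 and 12.98 ± 0.68.

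Some V-ATPase genes showed another order of arrays, with the highest value on s50_2. The B subunit isoform *atp6v1b1*, which in mammals serves acid-secreting cells of kidney and inner ear, had 3.17 on s50_1, 7.10 on s50_2 and 4.57 on s50_3. Its partner in those cells, the a subunit isoform *atp6v0a4*, had 2.92, 5.14 and 2.04 and was not detected as a mean. The G subunit isoform *atp6v1g3*, known from kidney in mammals, had 6.55, 8.82 and 7.03. On each of the 3 genes s50_2 stood above both other pools. The same held for *atp6v1al*, named as an A subunit-like gene, with 3.46, 6.56 and 3.55, and for *atp6ap1.1*, an accessory gene, with 2.43, 5.24 and 2.37. It also held for *atp6v0d2*, with 8.79, 9.80 and 8.91, an isoform that mammals use in kidney and osteoclasts. On the highest Xl-PSID of each gene, these are all 6 V-ATPase genes with a value under 10 on some array, and all 6 were highest on s50_2. Further Xl-PSIDs with values under 10 did not all share this order. Those of *atp6v0d1*, *atp6v1e1*, *atp6v1g1* and *atp6ap2* were highest on s50_1, and those of *atp6v1f* and *atp6v1b1* on s50_2. The further Xl-PSIDs of *atp6ap1.1* were split between s50_2 and s50_3. The division at 10 was made after the values were seen. Over all detected Xl-PSIDs, 25.1% were highest on s50_2, and 19 of the 112 detected members were (17%). These shares leave out *atp6v0a4* and *atp6ap1.1*, which were not detected. Without s50_2, the means of *atp6v1b1* and *atp6v1al* were 3.87 and 3.51, below detection. The further Xl-PSID of *atp6v1b1* was at or near the floor, with 2.07, 2.24 and 2.03. With both of its Xl-PSIDs averaged, *atp6v1b1* had 3.53, also below detection. Of markers for ion-transporting cells, 4 of 6 detected were highest on s50_2 as well. These 4 were *ca13*, *slc26a4.3*, *ca2* and *ca12*. The carbonic anhydrase *ca13* differed most between s50_2 and s50_1 in this list, with 5.55, 7.89 and 5.14. The other carbonic anhydrases *ca2* and *ca12* varied little, with 12.54 ± 0.04 and 12.09 ± 0.18. On s50_1 and s50_2, *ca2* had 12.53 and 12.59, and *ca12* had 12.12 and 12.25. The transporter *slc12a2*, which brings potassium and chloride into secretory cells, was lowest on s50_2 with 9.24, 8.42 and 8.69. The anion exchanger *slc4a1*, which is also on the list of erythroid markers, was highest on s50_1 with 11.28, 10.91 and 8.13. The marker *slc26a4.3* was highest on s50_2 too, with 7.82, 8.38 and 4.68. A further marker of this list, *slc26a4.1*, was not detected and was at the floor, with values from 1.97 to 2.03. Of the 6 detected markers of this list, 5 were lowest on s50_3, beside 35.9% of all detected Xl-PSIDs. The summed level of the 8 measured was 62.4, 64.6 and 55.0. The excess of s50_2 over s50_1 came mostly from *ca13* and to a smaller part from *slc26a4.3*, while *slc12a2* and *slc4a1* were lower on s50_2 than on s50_1. The defining regulator of these cells, *foxi1*, was at the floor with 2.03 ± 0.15. Erythroid markers were highest on s50_2 in 4 of 5 cases, with sums of 51.6, 59.9 and 51.1. Most of the excess on s50_2 came from the globin *hbg1*, with 4.60, 10.43 and 7.44. The globin *hbd* varied little, with 15.04 ± 0.06. Counts and sums of the erythroid and ion-transporting lists share *slc4a1*. The part of either cell type in these values was not tested.

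**Figure D2:**
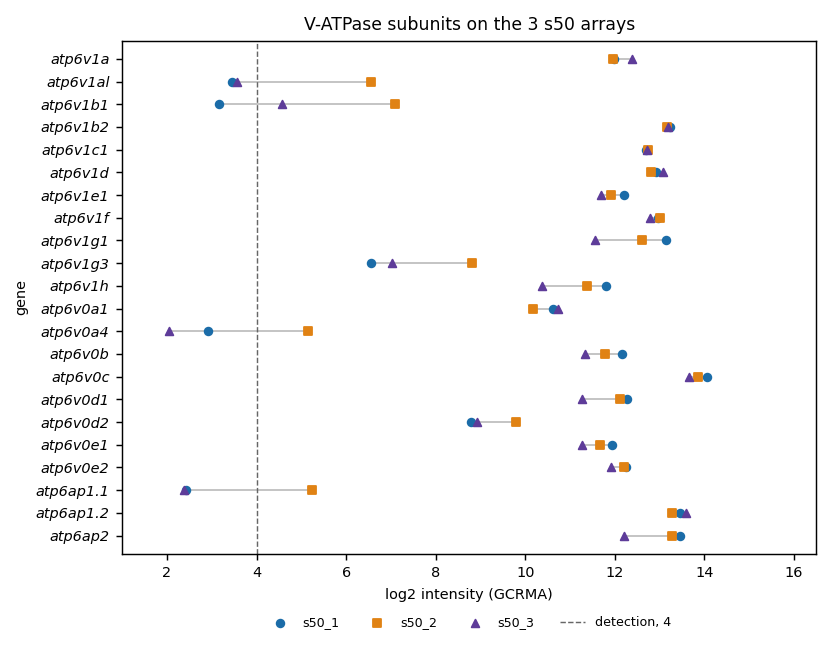
Log2 intensity (x axis) of the 22 V-ATPase genes (y axis) on s50_1, s50_2 and s50_3, with the highest Xl-PSID standing for a gene. A grey line runs from the lowest to the highest array, and the dashed line is at 4. The genes *atp6v1al*, *atp6v1b1*, *atp6v1g3*, *atp6v0a4*, *atp6v0d2* and *atp6ap1.1* have their highest point on s50_2, while the other 16 lie above 10 on every array.

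The common subunits tended to be lowest on s50_3. Of 35 detected V-ATPase Xl-PSIDs, 24 were lowest on s50_3 (68.6%), beside 35.9% of all detected Xl-PSIDs. Several of the 35 belong to the same gene and are not separate observations. By genes, 10 of the 16 with at least 10 on every array were lowest on s50_3 on their highest Xl-PSID. Measured from each Xl-PSID's own mean, the median difference of these 35 was 0.31 for s50_1, 0.13 for s50_2 and -0.43 for s50_3. Among the detected members outside the V-ATPase 29 of 77 were lowest on s50_3 (37.7%), and this share differed by family. It held for 4 of 5 aquaporin, 5 of 7 chloride intracellular channel and 4 of 7 sodium pump beta subunit Xl-PSIDs. It held for none of 5 epithelial sodium channel and none of 3 voltage-gated calcium channel Xl-PSIDs. On highest Xl-PSIDs, the stalk subunit *atp6v1g1* had the widest range of these 16 genes, with 13.15, 12.61 and 11.56. Its further Xl-PSIDs had the same order, with 11.43, 11.26 and 9.50 on one and 11.45, 11.17 and 9.55 on the other. The regulatory subunit *atp6v1h* had 11.80, 11.38 and 10.37, and *atp6ap2*, also known as the prorenin receptor, had 13.45, 13.28 and 12.20. Not all followed this order, since the highest Xl-PSIDs of *atp6v1a*, *atp6v1d*, *atp6v0a1* and *atp6ap1.2* had their highest value on s50_3. The pool of s50_3 was labelled from less RNA than the others, and the part of this in the values was not tested.

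The sodium pump exchanges sodium for potassium and needs a beta subunit to reach the membrane. Its alpha subunits were not analysed here. Of 4 beta subunit genes, 3 were detected at high intensity. The gene *atp1b1* had 14.67, 14.46 and 13.67, and *atp1b3* had 14.28, 14.12 and 14.12. The *atp1b2* value of 14.66 ± 0.05 belonged to the L homeolog, a further Xl-PSID of this homeolog had 13.14, 11.32 and 12.68, and the Xl-PSID of the S homeolog was at the floor with 1.92 ± 0.02. The beta subunit gene *atp1b4* had 1.97, 3.35 and 1.97. The gastric proton pump, which exchanges protons for potassium, was not detected, with 3.08 ± 0.69 for *atp4a* and 2.02 ± 0.04 for *atp4b*.

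All 6 calcium pump genes were detected. The plasma membrane pumps *atp2b1* and *atp2b4*, which expel calcium from the cell, had 13.07 ± 0.42 and 12.15 ± 0.37. The reticulum pump *atp2a2*, found in many cell types, had 12.73, 11.88 and 11.54 on one Xl-PSID and 2.04 ± 0.03 on another. The related *atp2a3* had 9.94 ± 0.53, and *atp2c2*, a calcium pump of the secretory pathway, had 9.90 ± 0.37. The reticulum pump *atp2a1* of fast muscle had 12.25, 13.24 and 13.38 on its highest Xl-PSID but 12.33, 11.82 and 11.04 on the other, the opposite order. All 10 muscle markers were lowest on s50_1, beside 44.8% of all detected Xl-PSIDs, and the summed level of these markers was 104.1, 120.2 and 119.4. The part of muscle in the *atp2a1* values was not tested.

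Of 30 potassium channel genes, auxiliary subunits included, 18 were detected, beside 80.5% of all genes. The pore subunit *kcnq1* had 10.47 on s50_1, 10.94 on s50_2 and 10.96 on s50_3. Its partner *kcne1* had 4.39, 3.76 and 4.30, close to the threshold for detection and below it on s50_2. A related partner, *kcne3*, which joins KCNQ1 in the colon of mammals, had 4.96, 6.16 and 7.66. The range between pools was 0.48 for *kcnq1* and 0.63 for *kcne1*, whereas *kcne3* ranged over 2.70 and was highest on s50_3. A further gene of this family, *kcne5*, had 11.25 ± 0.28. The inward rectifier *kcnj10*, which in mammals acts in the stria vascularis and in glia, had 10.54, 10.89 and 10.29. Of the other inward rectifiers only *kcnj15* was detected, with 3.91, 4.64 and 3.79, so that its detection rested on s50_2. The genes *kcnj1*, *kcnj5* and *kcnj16* were at or near the floor, from 1.91 to 2.17.

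Leak channels of the two-pore family set the resting potential, and 4 of 6 genes were detected. The channel *kcnk1* had 10.94, 11.13 and 11.74 for the L homeolog and 9.06 ± 0.58 for the S homeolog. The channel *kcnk5*, which responds to alkaline pH in mammals, had 9.53, 9.29 and 9.83 on its highest Xl-PSID. On its other Xl-PSID *kcnk5* had 6.33, 4.69 and 3.72. The channel *kcnk6* had 8.53, 8.42 and 6.72, and *kcnk9*, known from neurons, had 6.66, 5.42 and 3.21. The last of these was thus detected on s50_1 and s50_2 but below 4 on s50_3. Both *kcnk7* and *kcnk10* were at the floor, with 1.98 and 2.07.

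Of 9 voltage-gated potassium channel genes, 4 were detected. Apart from *kcnq1* these were *kcna1*, *kcna4* and *kcnd3*, which shape firing in excitable cells. On s50_1 *kcna1* had 9.01, against 6.29 and 6.31 on the other arrays. The pattern of *kcnd3* was alike, with 8.84, 6.57 and 6.64. Both stood more than 2 above the other pools on s50_1, whereas *kcna4* had 6.58, 7.18 and 7.09. At or near the floor were *kcna2*, *kcna3* and *kcna7*, from 1.87 to 1.93, and *kcnb2* and the Xl-PSID named *kcnb2-a*, with 1.98 and 2.19. For the 10 detected neuron and Schwann cell markers the median difference from their own means was 0.25 for s50_1, -0.034 for s50_2 and -0.21 for s50_3. Of these 10 markers, 4 had their highest value on s50_1, and s50_2 and s50_3 each held that of 3. The summed level of the 11 measured was 135.2, 128.6 and 127.8. Much of the excess on s50_1 came from *elavl4*, with 12.27, 10.47 and 10.86, and from *elavl3*, with 5.86, 2.59 and 2.92 and not detected as a mean. The part of neurons in the *kcna1* and *kcnd3* values was not tested.

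The calcium-activated channel *kcnma1*, which tunes hair cells electrically in frogs and turtles, had 8.48, 7.40 and 8.07. Its beta subunit *kcnmb3* had 6.58, 8.54 and 8.99, so the pore gene and the auxiliary gene were lowest on different arrays. Auxiliary subunits of voltage-gated channels were detected as well. The gene *kcnip4*, for a calcium sensor that binds Kv channels, had 8.51 ± 0.78, *kcnab3* had 8.12 ± 0.37 and *kcnip1* had 5.10 ± 0.18. The genes *kcnip2* and *kcnab2* were not detected, with 3.63 ± 0.05 and 2.95 ± 0.43.

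Epithelial sodium channels take up sodium from the luminal fluid, and most of their Xl-PSIDs were highest on s50_3. The beta subunit *scnn1b* had 9.88, 10.52 and 11.91 on the Xl-PSID of the L homeolog and 7.85 ± 0.06 on that of the S homeolog. The gamma subunit *scnn1g* had 7.83, 8.49 and 9.27, and its further Xl-PSIDs had 5.17, 5.61 and 6.82 on one and 5.37, 5.49 and 6.67 on the other. All 5 detected Xl-PSIDs were lowest on s50_1 and 4 were highest on s50_3, beside 44.8% and 43.3% of all detected Xl-PSIDs. These 5 belong to 2 genes and are not separate observations. The delta subunit *scnn1d* was at the floor with 2.07 ± 0.02. No alpha subunit was analysed here. Epidermal tissue also expresses these channels in frogs, and the summed level of the 10 measured epidermal markers was 72.7, 72.6 and 75.5. Detected were *krt19*, *perp*, *ppl*, *krt12.5* and *dsp*, with means of 14.83, 12.77, 12.11, 11.95 and 9.95. The regulator *tp63* was at the floor. Much of the excess on s50_3 came from the keratin *krt12.6*, which was not detected as a mean, with 2.11, 2.17 and 4.39. The 5 detected epidermal markers were highest on s50_1 in 1 case, on s50_2 in 2 and on s50_3 in 2. The part of epidermis in the sodium channel values was not tested.

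Voltage-gated sodium channels were seen through their beta subunits. The genes *scn2b*, *scn3b* and *scn4b*, whose proteins modulate and anchor the pore, had 9.02 ± 0.28, 8.52 ± 0.56 and 8.73 ± 0.11. A further Xl-PSID of *scn4b* was at the floor with 1.97 ± 0.01. The only measured pore subunit, *scn1a* of neurons, was at the floor on both Xl-PSIDs, with 1.85 ± 0.01 and 2.01 ± 0.03.

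The CLC exchangers of endosomes and lysosomes trade chloride for protons beside the V-ATPase, and all 3 measured genes were detected. The genes *clcn3* and *clcn5* had 10.51 ± 0.33 and 10.45 ± 0.51, and both were highest on s50_3. The lysosomal *clcn7* had 9.67, 9.18 and 7.58 and was lowest there. All 4 genes of the chloride intracellular channel family were detected too. The gene *clic5*, whose protein lies at the base of stereocilia in mice, had 9.94, 10.08 and 10.83. The related *clic1*, *clic4* and *clic3* had 12.70 ± 0.18, 11.77 ± 0.32 and 5.08 ± 0.63. A further Xl-PSID of *clic1*, of the S homeolog, had 11.69, 11.36 and 9.42. Further Xl-PSIDs of *clic4* had 10.78, 10.83 and 10.05 on one and 8.47, 7.67 and 6.25 on the other. The anoctamins include calcium-activated chloride channels and lipid scramblases. The channel *ano1* had 6.77, 7.44 and 4.43 on its highest Xl-PSID, of the L homeolog. The Xl-PSID of its S homeolog had 6.26, 5.53 and 5.56. A further one of the L homeolog was not detected, with 2.46 ± 0.13. The gene *ano5* had 10.96 ± 0.08, and *ano10* had 10.92, 10.33 and 5.10. The last value made *ano10* the member Xl-PSID with the largest SD among those detected, at 3.20. The chloride channel *cftr* was at the floor on both Xl-PSIDs, with 1.94 and 2.0.

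Of 6 water channel genes, 4 were detected. The water channel *aqp3*, which also passes glycerol and lies in the basolateral membrane of many epithelia, had 11.41, 12.06 and 12.42, and the Xl-PSID named *aqp3-a* had 8.92, 9.90 and 8.71. The intracellular *aqp11* had 9.75 ± 0.40 on its highest Xl-PSID. The water channel *aqp1*, known from red cells and capillaries, differed widely, since s50_1 had 7.40, s50_2 had 2.87 and s50_3 had 1.91. Its mean of 4.06 passed detection through s50_1 alone and was 2.39 without it. The genes *aqp2*, for the water channel regulated by vasopressin in kidney, and *aqp12a* were at the floor, with 2.10 and 1.86.

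**Figure D3:**
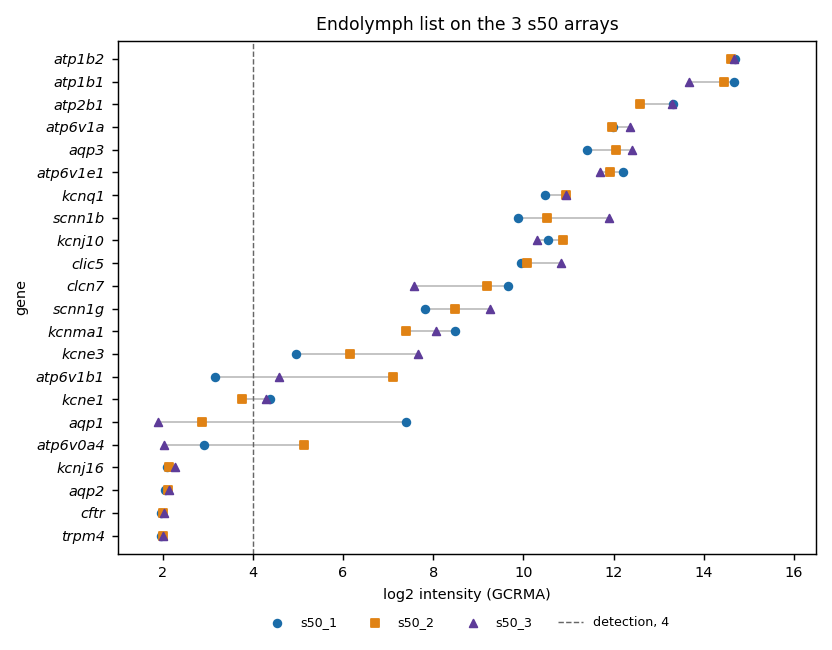
Log2 intensity (x axis) on s50_1, s50_2 and s50_3 of the 22 measured genes (y axis) of a list of 40 pump, channel and aquaporin symbols tied to endolymph or its cells, in order of their mean, with a grey line from the lowest to the highest array and the dashed line at 4. Of these 17 were detected, beside 80.5% of all genes, and *aqp1*, *atp6v1b1* and *kcne3* have the widest lines among the 17.

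Of 7 voltage-gated calcium channel genes, 3 were detected. The pore subunit *cacna1s* of skeletal muscle, which triggers contraction, had 2.61, 5.32 and 6.15. Its gamma subunit *cacng1* had 1.94, 4.90 and 4.91 and missed detection with a mean of 3.92, and its beta subunit *cacnb1* had 6.85, 8.27 and 7.13. On their highest Xl-PSIDs all 3 were lowest on s50_1, as were the 10 muscle markers, beside 44.8% of all detected Xl-PSIDs. A further Xl-PSID of *cacnb1* was at the floor with 1.98 ± 0.06 and was lowest on s50_2. The part of muscle in these values was not tested. Without s50_1 the mean of *cacng1* was 4.90, and without s50_3 that of *cacna1s* was 3.97. The gene *cacng5*, for a protein related to the gamma subunits, had 8.98, 9.26 and 10.58. The neuronal pore subunit *cacna1a*, the auxiliary *cacna2d3* and the beta subunit *cacnb3* were at the floor, from 1.94 to 2.13.

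Among cation channels of the TRP family *trpm7*, a magnesium-permeable channel fused to a kinase, had 8.24 ± 0.30. The channel *trpc1* had 7.42 ± 0.12 on its highest Xl-PSID, while its further Xl-PSIDs were not detected, with means of 2.48 and 2.31. The calcium-activated *trpm4* was at the floor with 2.0. The symbol rule also took in *trpc4ap*, for a protein that binds a TRP channel and is not a channel itself, with 5.31 ± 0.80. The ATP-gated channels *p2rx7* and *p2rx4* had 10.97 ± 0.39 and 9.28 ± 0.84, and *itpr1*, which releases calcium from the reticulum, had 10.16, 10.71 and 11.11. These highest Xl-PSIDs of both P2X genes and *itpr1* were above the threshold on every array, while a further Xl-PSID of *p2rx4* was not detected, with 4.35, 3.06 and 2.45. The HCN, Piezo and ryanodine receptor families had no member here.

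Of the 112 detected members, 28 had a range, from lowest to highest array, of 1.5 or more (25.0%), beside 24.8% of all detected Xl-PSIDs. The share followed level as it did over all detected Xl-PSIDs. At means of 4 to 6 it was 53.3% of 15 members beside 55.4%, at 6 to 10 it was 35.0% of 40 beside 35.7%, and from 10 it was 10.5% of 57 beside 10.6%. The median SD was 0.51, beside 0.47. Of the 28, 16 were lowest on s50_3, 9 on s50_1 and 3 on s50_2. Over all 112 the lowest array was s50_1 for 32 (28.6%), s50_2 for 27 (24.1%) and s50_3 for 53 (47.3%), beside 44.8%, 19.3% and 35.9%. The highest array was s50_1 for 60 (53.6%), beside 31.7%. Over the 162 members Pearson's r with s50_2 was 0.973 for s50_1 and 0.973 for s50_3, and r of s50_1 with s50_3 was 0.956, which is a description across Xl-PSIDs that share arrays.

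**Figure D4:**
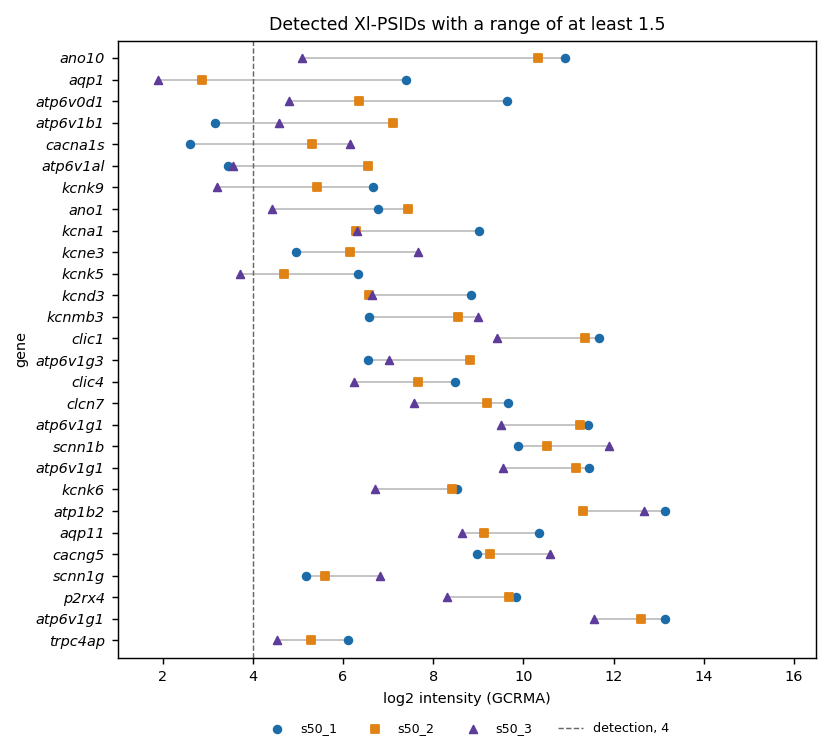
Log2 intensity (x axis) on s50_1, s50_2 and s50_3 of the 28 detected members whose range is 1.5 or more (y axis, by gene, in order of SD), with a grey line from the lowest to the highest array and the dashed line at 4. The Xl-PSIDs of *ano10*, *aqp1* and *atp6v0d1* lead, each with its highest point on s50_1 and its lowest on s50_3.

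Several Xl-PSIDs were measured for 44 genes. All were detected for 24 of these genes, none for 8 and only some for 12. The pump gene *atp2a2*, *kcnq1* and *aqp11* were among the 12. The *kcnq1* channel had 10.79 ± 0.27 on one Xl-PSID and 2.47 ± 0.16 on another, and the 3 of *aqp11* had means of 9.75, 9.38 and 1.85. An undetected Xl-PSID thus need not mean an undetected gene, and 58 genes rested on a single Xl-PSID. Among 28 genes with several detected Xl-PSIDs, 12 shared both their highest and their lowest array, and in 8 the highest array of one Xl-PSID was the lowest of another. These 8 were *ano1*, *atp2a1*, *atp6v1a*, *clic1*, *kcna4*, *kcne5*, *kcnk5* and *p2rx4*. For 16 genes both homeologs were measured, and both were detected for 10, 1 for 3 and neither for 3. Those with 1 homeolog detected were *aqp1*, *atp1b2* and *kcnk6*, in each case the L homeolog. Homeologs are alike in sequence, so probes of one may also bind the other. None of these counts was made over all genes, so they do not tell whether members differ from other genes.

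**Figure D5:**
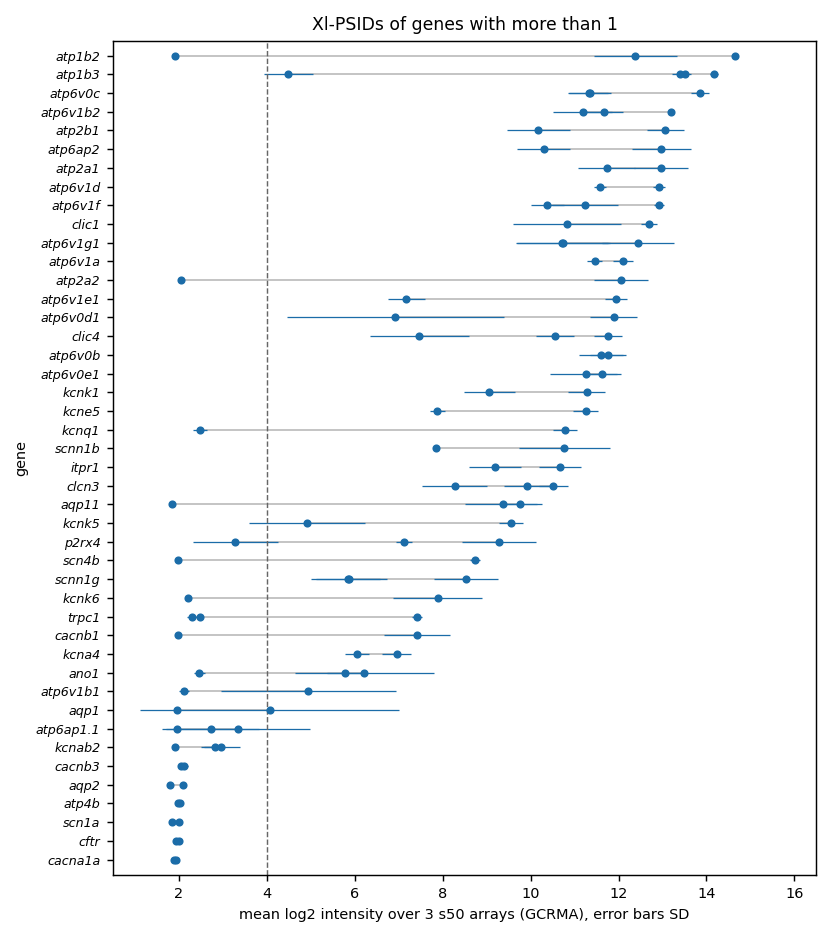
Mean log2 intensity over the 3 s50 arrays (x axis, error bars SD) of each Xl-PSID of the 44 member genes with several (y axis), with a grey line joining those of a gene and the dashed line at 4. For 12 genes, such as *atp1b2*, *atp2a2* and *kcnq1*, the points lie on both sides of the threshold.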

How the data were processed

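Affymetrix Xenopus laevis Genome 2.0 arrays were summarized by the authors with GCRMA (JMP Genomics 5.0), and their deposited log2 values for 32635 Xl-PSIDs were used without a further normalization. The sources used here do not give whether other stages entered that step. Array scans and the other stages were not analysed here. Symbols came from the platform annotation, in which 15505 Xl-PSIDs have 1 symbol, 279 several and 16851 none. Of the 162 members, 157 matched the RefSeq table and none was renamed, and 1 Xl-PSID with several symbols was left out. The Xl-PSID with the highest mean stood for a gene. The replicates are pools of different animals. Members, families and lists were chosen with earlier results of these data known. Genes were named by family (the 4 highest and those not detected, or all in small families), by SD and from the endolymph list. Further V-ATPase subunits, *kcnip1*, *kcna7*, *kcnb2*, *kcnb2-a* and the single markers were added after their values were seen. Alternatives are given at the end. Counting steps were tested on simulated data. Python 3.11.15, pandas 2.3.3 and scipy 1.17.1 were used. No sequence is shown.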

Additional observations from a re-analysis of the deposited data

How the results depend on the processing

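With detection at a mean of 3 or 5 or at 4 on every array, with quantile normalization and with each array left out, the number of detected member Xl-PSIDs (112) lay between 103 and 118 and that of genes (75) between 68 and 80. When those that can match several transcripts were left out, 94 Xl-PSIDs were detected. With the Xl-PSIDs of a gene averaged 73 genes were detected, and with homeologs counted apart 86. The share of detected members with a wide range (25.0%) was 48.2% at a range of at least 1 and 9.82% to 22.0% with an array left out, where fewer arrays enter the range. By family, the count changed by more than 1.5 times only for inward rectifiers, where *kcnj15* was lost with a mean of at least 5, with 4 on every array and without s50_2, and for the H,K-ATPase, where *atp4a* was gained at a mean of 3. Without s50_1 *aqp1* was lost and *cacng1* gained, without s50_2 *atp6v1b1*, *atp6v1al* and *kcnj15* were lost, and without s50_3 *cacna1s* was lost and *atp6v0a4* gained with 4.03. With the mean of its Xl-PSIDs, the level of 34 of 44 genes moved by more than its SD, while none of 102 did under quantile normalization. The highest Xl-PSID stood for a gene, so averaging could only lower its level. Medians of all Xl-PSIDs were already close between arrays, at 7.53, 7.52 and 7.45, which left quantile normalization little to shift. No paired analysis was possible because there is 1 group. With 3 arrays no outlier was sought.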
